A study of Mus musculus with 2 samples.

Results

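The genes described here encode the enzymes that build DNA at the replication fork: the clamp Pcna, the clamp loader subunits Rfc3, Rfc4 and Rfc5, the polymerase subunits Pola1 and Pole, the primase subunit Prim1, the flap endonuclease Fen1, the DNA ligase Lig1 and the single-strand binding subunit Rpa2. They were listed by name and read from the array features annotated to these symbols; the rule uses no measured value, but the list was drawn up with earlier results of these data known. Of the 10 listed genes, 9 had a named feature among the 16504 genes measured, each with a single feature; Fen1 was not matched to a feature by symbol or gene ID and has no value here.

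Thymocytes are T cells developing in the thymus. They were taken from null (-/-) mice, which lack the gene under study, and from wild-type (+/+) mice. The cells are described as thymocytes but the source is labelled thymus, and no strain, sex or age is given in the labels. RNA of 3 mice was pooled per genotype, and 2 dual-colour Agilent arrays each received both pools, with the null pool in Cy5 on the first (the null-Cy5 array) and in Cy3 on the second (the null-Cy3 array). The arrays are therefore technical repeats of a single pool of each genotype. They carry no measure of the variation among animals, so no test and no p-value is given.

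At a replication fork the primase and polymerase alpha lay down a short primer, the RFC complex opens the ring-shaped clamp PCNA and loads it at the primer end, and polymerases epsilon and delta, held by the clamp, extend the leading and lagging strands. RPA coats the exposed single strand, and FEN1 and DNA ligase I trim and join the fragments of the lagging strand. In the thymus most DNA synthesis takes place as early thymocytes expand before and during the passage to the double positive stage, whereas most double positive and mature cells are at rest. These genes are classical targets of the E2F transcription factors, which switch on genes for S phase.

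Every measured replication fork gene had a ratio above 0 on both arrays, with a median of 0.58 in log2 of null over wild type, a 1.497-fold difference. On the null-Cy5 array the median was 0.58 and on the null-Cy3 array it was 0.54, against -0.00023 and 0.00027 over all 16504 genes. Of all genes, 25% lay above 0 on both arrays. The call rule asked for at least 1.5-fold (0.585 in log2) in 1 direction on both arrays, and 1 of the 9 genes, Prim1, passed it, beside 0.412% of all genes that passed it as higher. All 9 were among the 1000 highest of the 16504 genes by the mean of the arrays, a place that rests on the direction described next. A larger share of cells that replicate DNA and more of these transcripts per cell cannot be told apart in bulk RNA.

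The direction of the ratios is likely, not certain, because the file does not state it. Its basis is the dye labelling of the first array, together with the way zeros are written in the second column, where all 82 exact zeros carry a minus sign, against 80 plain zeros in the first, as multiplication by -1 would leave them. It also assumes that the first column is Cy5 over Cy3, which is not stated. The title of the first array names wild type before null. If both columns were wild type over null, each of the 9 genes would be lower in the null pool. The 2 columns correlated with Pearson's r = 0.238 over genes, which are not independent replicates, but with r = -0.447 over all 22393 features. Over the 18218 features with 1 gene symbol r was 0.216, and over the other 4175 it was -0.860. If the second column were instead a raw Cy5 over Cy3 ratio, the values shared by both arrays would be dye bias, and the median of the 9 genes would be -0.0049, with 5 of them below 0 and 1, Pcna, among the 1000 highest genes. The scale, taken as log10 by the convention of the scanner software and converted to log2, is not stated either.

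**Figure D1:**
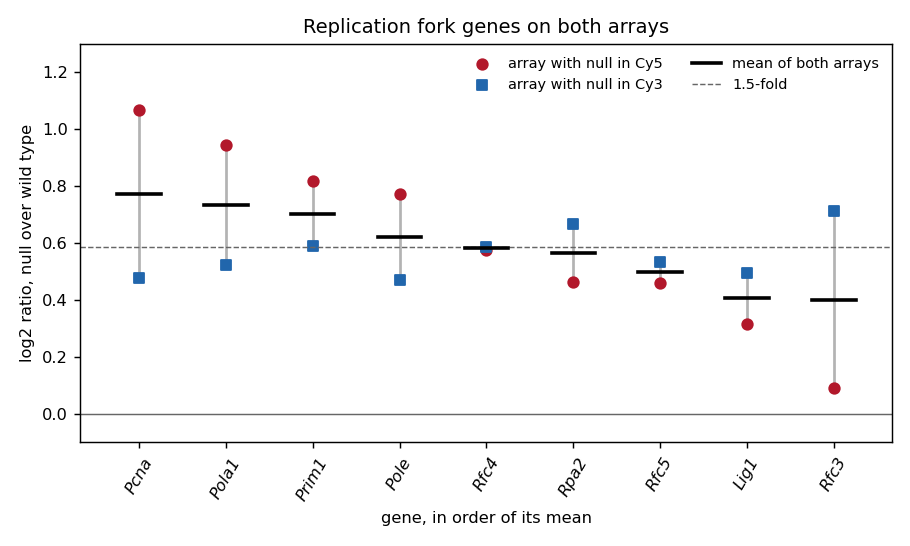
Log2 ratio of null over wild type for the 9 measured replication fork genes, in order of their mean. Red circles are the null-Cy5 array, blue squares the null-Cy3 array, black bars the mean of both, and the dashed line is 1.5-fold; every point lies above 0, and Prim1 alone has both points at or above the line.

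The clamp and the priming enzymes had the highest means, an order that the null-Cy5 array gave and the null-Cy3 array did not. On the null-Cy3 array Pcna (0.478) and Pole (0.472) were the lowest of the 9 genes. Rfc3 (0.71) and Rpa2 (0.67) were the highest there, followed by Prim1 (0.59). Pcna, the sliding clamp that tethers polymerases to DNA, had log2 ratios of 1.07 on the null-Cy5 array and 0.48 on the null-Cy3 array, a mean of 0.77 (SD 0.42 between the arrays), or 1.71-fold. The first array put Pcna above the 1.5-fold line and the second below it, so it did not pass the rule. It ranked 59th of the 16504 genes by its mean, and would rank 506th with the second column turned. RefSeq also lists the pseudogenes Pcna-ps1 and Pcna-ps2, and whether the Pcna feature binds their transcripts was not tested.

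Pola1, the catalytic subunit of polymerase alpha, had ratios of 0.94 and 0.52 on the same arrays, a mean of 0.73 (SD 0.30), or 1.66-fold, at rank 74 (1139 with the second column turned). Prim1, the catalytic subunit of the primase that makes the RNA primer, had 0.82 and 0.59, a mean of 0.70 (SD 0.16), or 1.63-fold, at rank 91 (3085 turned). On the null-Cy3 array its 1.504-fold ratio lay just past the threshold. Pole, the catalytic subunit of the leading-strand polymerase epsilon, had 0.77 and 0.47, a mean of 0.62 (SD 0.21), or 1.54-fold, at rank 144 (2119 turned). These 4 genes, Pcna included, all had the larger ratio on the null-Cy5 array.

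The clamp loader subunits had middle to low means. Rfc4, one of the small ATP-binding subunits that open the clamp, gave nearly the same ratio on both arrays, 0.577 and 0.587, a mean of 0.58 (SD 0.0070). It missed the rule with a 1.492-fold ratio on the null-Cy5 array, and stood just outside the threshold that Prim1 just passed. Rfc5 had 0.46 on the null-Cy5 array and 0.54 on the null-Cy3 array, a mean of 0.50 (SD 0.052), or 1.41-fold. Rfc3 was the most discordant gene of the set, with 0.09 on the null-Cy5 array and 0.71 on the null-Cy3 array, a mean of 0.40 (SD 0.44). On 1 array Rfc3 was the lowest of the 9 genes and on the other the highest.

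Single-strand binding and fragment joining gave middle to low means. Rpa2, the middle subunit of RPA, had 0.47 on the null-Cy5 array and 0.67 on the null-Cy3 array, a mean of 0.57 (SD 0.14), or 1.48-fold. Lig1, the ligase that seals the lagging-strand fragments, had 0.32 and 0.50, a mean of 0.41 (SD 0.13), or 1.33-fold. The 3 RFC subunits, Rpa2 and Lig1 all had the larger ratio on the null-Cy3 array, the reverse of the other 4 genes.

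The order of the genes is only partly resolved. Neighbours in the order Pcna, Pola1, Prim1, Pole, Rfc4, Rpa2, Rfc5, Lig1, Rfc3 differed by 0.0058 to 0.091 in log2, and in each of the 8 neighbouring pairs the array values overlapped. Of all 36 pairs of the 9 genes, 30 overlapped. In the other 6, both values of Prim1 lay above both of Rfc4, Rfc5 and Lig1, those of Rfc4 above those of Rfc5 and Lig1, and those of Pola1 above those of Lig1. Compared within each array, 12 pairs kept the same order on both and 24 did not. The 12 are these 6 together with Pcna, Pola1 and Prim1 over Pole, Rpa2 over Rfc5 and Lig1, and Rfc5 over Lig1. The SD of the means over the 9 genes was 0.14, smaller than the median SD between the arrays within a gene, 0.16. Their values ranged from 0.09 to 1.07 on the null-Cy5 array and from 0.47 to 0.71 on the null-Cy3 array.

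How many genes pass depends on where the line is drawn. On the null-Cy5 array alone, 4 of the 9 were at least 1.5-fold higher (Pcna, Pola1, Prim1 and Pole), beside 2.31% of all genes. On the null-Cy3 array alone, 4 passed as well (Rfc3, Rfc4, Prim1 and Rpa2), beside 2.92%. Prim1 is the single gene in both groups. At a lower line of 0.322 in log2 on both arrays, 7 of the 9 passed, beside 2.29% of all genes, and at 2-fold on both arrays none did, beside 0.0424%. The 2 that missed the lower line were Lig1, at 0.318 on the null-Cy5 array, and Rfc3.

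**Figure D2:**
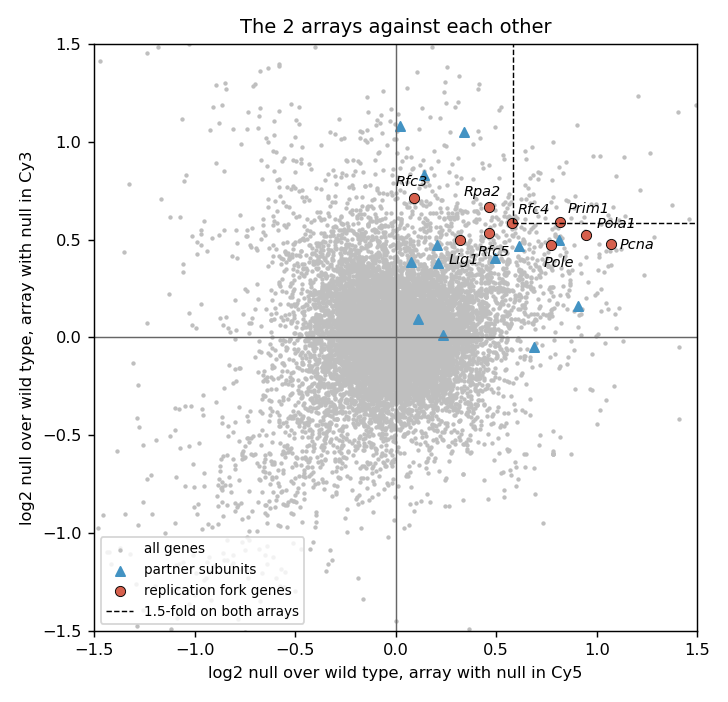
Log2 ratio of null over wild type on the null-Cy5 array (horizontal axis) and the null-Cy3 array (vertical axis) for all genes (grey), partner subunits (blue triangles) and the replication fork genes (red), with the dashed corner marking 1.5-fold on both. The axes stop at 1.5, which leaves out 56 genes; the 9 red points lie right of and above 0, and Prim1 sits inside the dashed corner, with Rfc4 at its edge.

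The proteins work as complexes, so the other subunits were read from the same arrays. Of the 13 partner subunits, 12 lay above 0 on both arrays and none below, with a median of 0.45. None passed the 1.5-fold rule, beside 0.412% of all genes, and 4 passed the lower line of 0.322, beside 2.29%. The 4 were Pole2 (0.81 on the null-Cy5 array and 0.50 on the null-Cy3 array), Prim2 (0.61 and 0.47), Rfc1 (0.49 and 0.40) and Pold2 (0.34 and 1.05). Pole2 is the second subunit of polymerase epsilon, Prim2 the regulatory subunit of the primase, Rfc1 the large subunit of the clamp loader and Pold2 an accessory subunit of polymerase delta.

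All 4 subunits of the primase and polymerase alpha complex were above 0 on both arrays, though Pola2, its regulatory subunit, had 0.02 on the null-Cy5 array and 1.08 on the null-Cy3 array (mean 0.55, SD 0.75). In polymerase epsilon, the catalytic Pole and Pole2 had means of 0.62 and 0.66, whereas the small histone-fold subunits Pole3 and Pole4 had 0.48 (SD 0.49) and 0.12 (SD 0.16). Pole4 was read by 2 features, 1 with 0.21 on the null-Cy5 array and -0.14 on the null-Cy3 array, the other with 0.25 and 0.16. Its place above 0 on the null-Cy3 array (0.0098) rests on their average. The small subunits thus include the lowest value of that complex.

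Polymerase delta, the lagging-strand enzyme, had the lowest median of the fork polymerases, 0.32. Pold1, its catalytic subunit, had a mean of 0.29 (SD 0.12) and Pold3 of 0.34 (SD 0.19). Pold4, the smallest subunit, had 0.11 and 0.09, a mean of 0.10 (SD 0.014), the lowest mean of the 22 fork genes and partner subunits. Pold2 stood apart with a mean of 0.69 (SD 0.50), carried mainly by the null-Cy3 array.

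All 5 clamp loader subunits were above 0 on both arrays, with means from 0.23 for Rfc2 (SD 0.22) to 0.58 for Rfc4. Among the RPA subunits, Rpa1, the large DNA-binding one, had 0.90 on the null-Cy5 array and 0.16 on the null-Cy3 array, and Rpa3, the smallest, had 0.69 and -0.05. Rpa3 is the one gene of these 22 that lay on opposite sides of 0. Rpa2 was thus the RPA subunit with the closest array values.

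**Figure D3:**
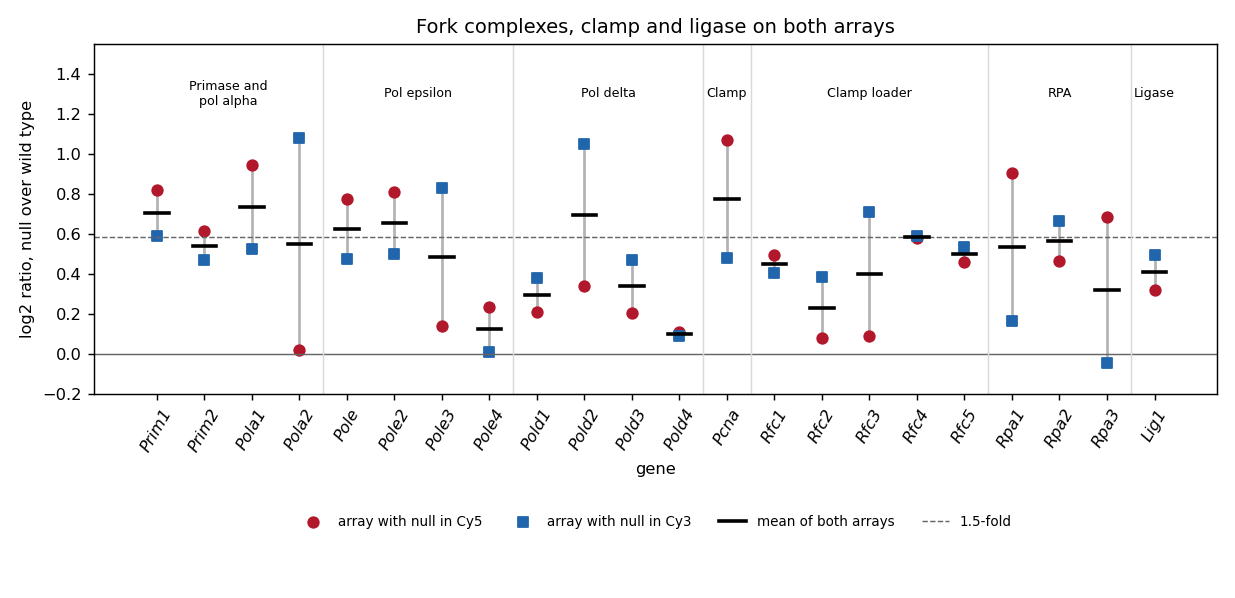
Log2 ratio of null over wild type for the 20 subunits of the primase, polymerase, clamp loader and RPA complexes and for Pcna and Lig1, with red circles for the null-Cy5 array, blue squares for the null-Cy3 array, black bars for the mean and a dashed line at 1.5-fold. Of these 22 genes, 21 have both points above 0; Rpa3 has a point at -0.05, and Pola2, Pold2, Rpa1 and Rpa3 show the widest gaps between the arrays.

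The promoters of these genes are shown because all measured fork genes had ratios above 0 and E2F sites are the textbook feature of their control. Windows of 300 bases, from 250 before to 50 after the annotated start, were taken from RefSeq (build GRCm38.p6) and matched 9 of the 10 genes by symbol, Fen1 included; Pole is named only. They were searched on both strands for 4 words of the E2F type and for CCAAT, the word bound by NF-Y. The E2F words were TTCCCGC together with its variants TTCGCGC and, with other central bases, TTGCCGC as well as TTGGCGC. Shown are the gene that passed the rule (Prim1), the genes with words of both kinds (Pola1, Rfc3 and Rpa2), the gene at the edge of the rule (Rfc4) and the gene with the highest mean ratio (Pcna). Each window is printed 5′ to 3′ on the strand of its gene, with matches of either kind, on either strand, in capitals.
Prim1 (chr10:128014965-128015264, plus strand): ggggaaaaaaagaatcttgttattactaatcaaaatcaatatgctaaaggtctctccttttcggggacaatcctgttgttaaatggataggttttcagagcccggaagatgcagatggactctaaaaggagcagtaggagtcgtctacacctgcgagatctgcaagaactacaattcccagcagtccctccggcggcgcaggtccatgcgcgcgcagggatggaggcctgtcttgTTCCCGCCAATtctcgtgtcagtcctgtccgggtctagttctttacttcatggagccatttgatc
Pola1 (chrX:93632106-93632405, minus strand): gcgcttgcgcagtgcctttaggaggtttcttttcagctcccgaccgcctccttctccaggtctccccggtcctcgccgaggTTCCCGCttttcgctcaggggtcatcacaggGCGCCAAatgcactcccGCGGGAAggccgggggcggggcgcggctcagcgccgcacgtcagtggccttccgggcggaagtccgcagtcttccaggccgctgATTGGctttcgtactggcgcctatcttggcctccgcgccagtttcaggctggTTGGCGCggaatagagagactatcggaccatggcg
Rfc4 (chr16:23127681-23127980, minus strand): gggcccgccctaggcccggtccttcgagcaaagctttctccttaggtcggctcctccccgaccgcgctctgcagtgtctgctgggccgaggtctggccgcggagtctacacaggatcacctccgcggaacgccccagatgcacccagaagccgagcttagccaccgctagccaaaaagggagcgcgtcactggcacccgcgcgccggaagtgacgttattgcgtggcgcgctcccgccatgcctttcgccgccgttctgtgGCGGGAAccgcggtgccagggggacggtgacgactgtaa
Rfc3 (chr5:151651159-151651458, minus strand): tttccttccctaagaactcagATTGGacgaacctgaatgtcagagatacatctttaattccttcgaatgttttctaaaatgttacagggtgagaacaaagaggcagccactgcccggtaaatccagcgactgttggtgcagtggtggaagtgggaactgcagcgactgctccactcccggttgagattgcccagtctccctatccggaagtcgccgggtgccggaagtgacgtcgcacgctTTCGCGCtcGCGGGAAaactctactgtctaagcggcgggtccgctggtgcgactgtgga
Rpa2 (chr4:132768110-132768409, plus strand): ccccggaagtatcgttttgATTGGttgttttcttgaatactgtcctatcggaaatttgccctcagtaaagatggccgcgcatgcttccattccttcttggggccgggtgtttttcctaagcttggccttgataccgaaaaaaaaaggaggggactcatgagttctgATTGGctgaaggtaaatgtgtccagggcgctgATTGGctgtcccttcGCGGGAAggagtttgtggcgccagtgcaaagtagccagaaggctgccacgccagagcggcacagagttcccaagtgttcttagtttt
Pcna (chr2:132253131-132253430, minus strand): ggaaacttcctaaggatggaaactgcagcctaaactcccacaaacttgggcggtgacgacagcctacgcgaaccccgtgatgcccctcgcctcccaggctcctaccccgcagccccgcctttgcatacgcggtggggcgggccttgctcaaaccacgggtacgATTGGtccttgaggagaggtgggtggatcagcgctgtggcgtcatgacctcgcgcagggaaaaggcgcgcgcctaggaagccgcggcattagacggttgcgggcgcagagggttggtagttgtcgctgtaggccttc

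In Prim1, the gene that passed the rule, the word TTCCCGC begins 15 bases before the start and shares its last base with a CCAAT that begins 9 bases before it. Pola1 holds 4 words of the E2F type, 3 of them before the start, and a CCAAT in its reverse form, ATTGG, 37 bases before it. Rfc4 and Rpa2 hold the word GCGGGAA, the reverse form of TTCCCGC, once each, beginning at base 12 after the start in Rfc4 and 37 bases before it in Rpa2. Rfc3 holds GCGGGAA at the start itself and TTCGCGC 9 bases before it. The window of Pcna, the gene with the highest mean ratio, holds no E2F word and a single ATTGG, 87 bases before the start.

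Words of the E2F type were in a window of 7 of the 9 genes (77.8%), and of 6 of the 8 that also have a ratio, against 15.8% of 13223 genes on the array with a window. The 2 without one were Pcna and Rfc5. Among MCM and licensing genes the count was 9 of 13 (69.2%), among partner subunits 7 of 11 (63.6%), and among polymerases and ligases that work mainly outside the fork 4 of 12 (33.3%). Genes with several annotated starts, such as Lig1 with 3 and Fen1 with 2, have more windows in which to match. CCAAT was in 5 of the 9 (55.6%) and in 9 of the 13 MCM and licensing genes (69.2%), against 42.3% of genes on the array. The windows had a median GC content of 60.2% in the fork genes and 58.3% in all genes on the array. A match is a run of letters and not a shown binding site, and no match in this window does not speak to binding elsewhere.

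Other genes that act at the fork had a median of 0.41, with 15 of 19 above 0 on both arrays and none below. None passed 1.5-fold on both arrays, beside 0.412% of all genes, and 10 passed the lower line, beside 2.29%. Cdc45, which completes the active helicase, had 0.52 on the null-Cy5 array and 1.18 on the null-Cy3 array. Tipin, of the fork protection complex, had 0.94 and 0.55, Gins1, a subunit of the helicase cofactor GINS, had 0.81 and 0.56, and Rnaseh2b, of the enzyme that removes ribonucleotides from DNA, had 0.80 and 0.51.

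Polymerases and ligases that work mainly outside the fork, in repair, antigen receptor recombination or mitochondria, had a median ratio near 0. The median of their 15 measured genes was 0.01, against 0.58 for the fork genes; with the second column turned it would be 0.047, against -0.0049. On both arrays 4 were above 0 and 3 below it, near the 25% of all genes on each side, and none passed the lower line in either direction. Polb, the base excision repair polymerase, had -0.05 and -0.15, Polm, of end joining, had -0.18 and -0.16, and Polh, which copies past ultraviolet damage, had 0.21 and 0.05. Rev3l, the catalytic subunit of polymerase zeta, had -0.12 on the null-Cy5 array and -0.82 on the null-Cy3 array. The highest mean of this list was that of Dntt, which adds bases at antigen receptor joints and is also on the double positive list, at 0.31 (0.56 on the null-Cy5 array and 0.05 on the null-Cy3 array); it is named after its value was seen.

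The checkpoint clamp, a ring of Rad9a, Hus1 and Rad1 built like PCNA, and its loader subunit Rad17, which takes the place of Rfc1, gave values near 0. Hus1 had a mean of 0.09 (SD 0.039), Rad1 of 0.10 (SD 0.43), Rad17 of -0.03 (SD 0.21) and Rad9a of -0.11 (SD 0.15). Their median was 0.03, against 0.58 for the fork genes, and with the second column turned 0.061, against -0.0049. None of the 4 passed the lower line.

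**Figure D4:**
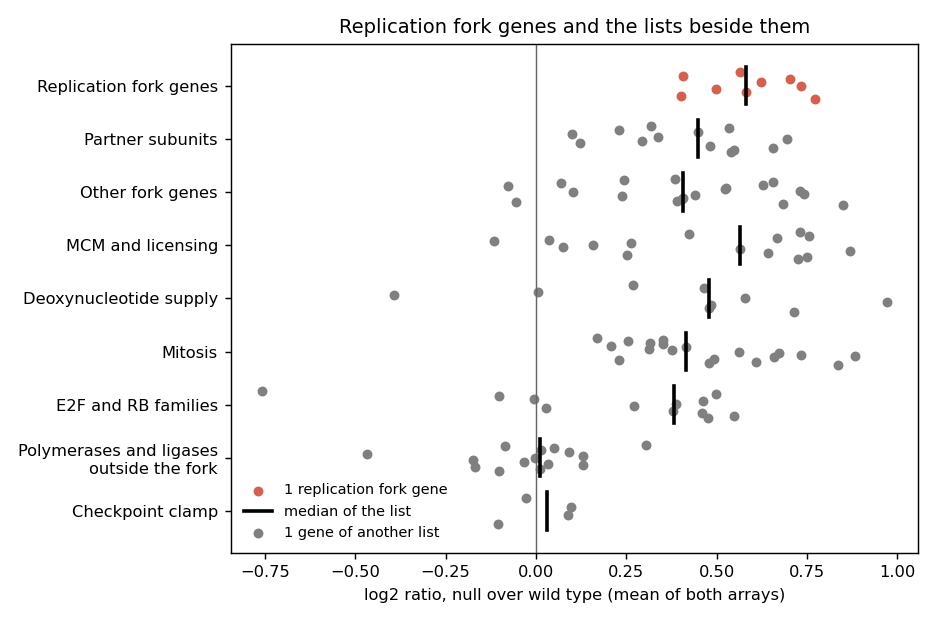
Mean log2 ratio of null over wild type of each gene (points) and the median of each list (black bars), with the 9 replication fork genes in red at the top. The medians run from 0.58 for the fork genes to 0.01 for polymerases and ligases outside the fork, and none of the 9 red points lies below 0.40.

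The lists nearest to the fork genes in S phase had like medians but wider ranges. The 15 MCM and licensing genes had a median of 0.57, with values from -0.12 to 0.87. Of these, 4 passed the rule, Mcm6, Mcm3, Cdc6 and Gmnn, beside 0.412% of all genes. The 9 deoxynucleotide supply genes had a median of 0.48 and 1 that passed, Dut, at 0.97 (SD 0.062), with values from -0.39 to 0.97. The 9 fork genes, listed with earlier results of these data known, ranged from 0.40 to 0.77. Their partner subunits ranged from 0.10 to 0.69, and the other genes that act at the fork from -0.08 to 0.85. The 19 mitosis genes lay all above 0 on both arrays, with a median of 0.42 and 1 that passed, Bub1 at 0.88 (SD 0.37). Whether the fork genes differ from these lists was not tested.

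Of the 12 measured E2F and RB family genes, 8 were above 0 and 1 below it on both arrays; the median was 0.38, and none passed the rule as higher. E2f2 had 0.58 on the null-Cy5 array and 0.52 on the null-Cy3 array, E2f3 had 0.35 and 0.58, and Tfdp1, the partner of E2F proteins in DNA binding, had 0.42 and 0.50. The gene below 0 was Rbl2, which encodes the pocket protein p130 of resting cells, at -0.98 and -0.54 (mean -0.76, SD 0.31); the second value kept it from the 1.5-fold rule.

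Markers of thymocyte stages had ratios of their own beside the fork genes. Of 9 mature thymocyte markers, 8 were below 0 on both arrays and none above (median -0.78), and 5 passed the rule as lower, beside 1.11% of all genes. Of 10 double positive markers, 6 lay below and 2 above and 3 passed as lower, with a median of -0.31 (-0.14 on the null-Cy5 array and -0.48 on the null-Cy3 array). The median of the 12 double negative markers was -0.03, and 3 were above and 3 below 0 on both arrays. The 1 that passed as lower was Il7r, which is also on the mature thymocyte list and among the 5 counted there. Of other cell types, 7 of 8 B cell and 6 of 8 epithelial markers lay below 0 on both arrays and none above, and 2 of each list passed as lower. The 7 erythroid markers had 3 above and 2 below, and none passed. The 8 myeloid markers had 3 above and 4 below, with a median of 0.0045. Of these, 1 passed as lower, Ctss (0.57-fold), and Lyz2 (0.65-fold) also lay below 0 on both arrays. S100a8 (2.33-fold) and S100a9 (1.95-fold) passed as higher, both with a larger mean than any fork gene. The file holds ratios and no intensities, so the level of any marker in either pool, and with it the labelled cell type, could not be checked. The part of the cells behind these markers in the ratios of the fork genes was not tested.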

How the data were processed

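Labelled cRNA, 750 ng per dye, was hybridised for 17 h, per the series' design text. Scans were processed with Agilent Feature Extraction 7.1 at default settings, per the submitters' processing notes and the design text. The deposited values are log ratios, taken here as log10 by that software's convention. The base, any centring, the order of the dyes in the ratio and the turning of the second column are not given in the sources used here. Column medians were -0.00141 and 0.00112 in log10, so no centring was added. Values were converted to log2, and both columns were read as null over wild type.

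Of 22393 features, the platform annotation gives 18218 a single symbol, 16 several and 4159 none. Symbols were updated for 18175 features by gene ID (RefSeq, GRCm38.p6, used for names and promoter windows), and features of a symbol were averaged into 16504 genes. No genome build is stated for the array. Each SD is the technical spread between the 2 arrays. A gene passed if both arrays gave at least 1.5-fold one way. Precision is limited by the number of arrays. Members, lists and rules were chosen with earlier results of these data known. From lists other than partner subunits and checkpoint clamp, at most the 4 genes with the largest smaller ratio were named. Dntt is an exception to this rule, named after its value was seen. The targeted gene is not reported here. Alternatives were centring, each array alone, the largest feature per gene, the log base, the sign of the second column and other fold thresholds. The averaging and call rule were tested on simulated data with planted changes larger than the mean of any fork gene. Recovery near the 1.5-fold line and calls among unchanged genes were not tested. Python 3.11.15, numpy 2.4.6, pandas 2.3.3 and matplotlib 3.10.9 were used.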

Additional observations from a re-analysis of the deposited data

How the results depend on the processing

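No paired analysis was possible because each genotype is a single pool, hybridised on both arrays. Centring each array and taking the feature with the largest ratio left the count of replication fork genes past the rule at 1, and each of the 9 means within 1 SD of its value. Each array alone gave a count of 4 and medians of 0.54 to 0.58, with all 9 values above 0 on each. Of all genes, 2.31% passed on the null-Cy5 array alone and 2.92% on the null-Cy3 array alone. Past 0.322 in log2 on both arrays the count was 7, beside 2.29% of all genes, and past 2-fold 0, beside 0.0424%. Past 1.5-fold on the mean of the arrays the count was 4. Of all genes, 0.87% had a higher mean than Pole, the lowest of these 4. A higher mean than Rfc4, just below that line, was found for 1.15%. With the second column turned, the count was 0, the median -0.0049, and 5 of the 9 genes lay below 0 (range -0.31 to 0.30). Of 8 gene lists, 1, the checkpoint clamp, then had a median above 0 on both arrays, against 7 of 8 as reported. The 7 include polymerases and ligases outside the fork, at only 0.024 on the null-Cy5 array and 0.0043 on the null-Cy3 array. With the deposited values taken as log2, the count was 0 and the median 0.18. The cause of the differences between the arrays was not tested. Signal over background is unknown without intensities, and each fork gene rests on a single feature.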

Other observations

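The dye term, taken as the array with null in Cy5 minus the other, over 2, had a median size of 0.11 over the 9 replication fork genes, against 0.087 over all genes. It was positive in the 4 genes of highest mean, Pcna, Pola1, Prim1 and Pole, and negative in the 5 below them. The mean and the dye term of a gene are made from the same 2 values. Over the 9 genes the SD was 0.31 on the null-Cy5 array and 0.084 on the null-Cy3 array. A link between mean and dye term is therefore built in and is no separate result. Across the 9 genes the arrays correlated with Pearson's r = -0.622, a description over genes read from the same 2 pools. Within the fork complexes the small subunits Pold4 (0.10) and Pole4 (0.12) had lower means than the catalytic subunits Pold1 (0.29) and Pole (0.62) of the same polymerases. These comparisons were picked after the values were seen. Their other subunits went both ways: Pole3 (0.48) lay below Pole, whereas Pole2 (0.66), Pold2 (0.69) and Pold3 (0.34) lay above their catalytic subunits. The origin recognition complex, with a median of 0.12 over 6 subunits, lay below the MCM helicase, with a median of 0.68 over 6; this comparison was chosen after the values were seen.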
